A study of Mus musculus with 10 samples.

Results

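The genes described here are the BMP ligand Bmp4, its immediate target genes Id1, Id2 and Id3, and the feedback inhibitors Bambi, Smad6 and Smad7. All probe sets carrying a single one of these 7 gene symbols were taken. There were 9 of them, 1 per gene except Id2, which had 3, out of 20380 probe sets with a single gene symbol for 12393 genes. In all, 10 Affymetrix single-channel arrays of mouse cells fell into 5 groups of 2 arrays, replicates a and b. Established induced pluripotent stem cells (iPSC) were grown with serum in 2i, which blocks ERK signalling and GSK3, or were co-cultured with mouse embryonic fibroblasts (MEFs). Secondary MEFs, descendants of reprogrammed cells that can express the 4 Yamanaka factors again, had expressed those factors for 32 days and were profiled without a named fraction, as a Sox2-positive fraction and as a Sox2-negative fraction. All groups are labelled iPSC as cell type, and the base medium was the standard one for mouse embryonic stem cells except where noted. The labels name no strain, clone, sex or Sox2 reporter, and do not say whether replicates a and b were separate cultures or whether feeder MEFs were removed. The p-values therefore measure the spread between these arrays, which may be technical.

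BMP ligands bind paired type I and type II receptors, which phosphorylate Smad1, Smad5 and Smad8. These join Smad4 and enter the nucleus, where the Id genes are among their most direct targets. Id proteins bind E proteins, which are basic helix-loop-helix (bHLH) transcription factors, and keep them off DNA; in mouse embryonic stem cells, BMP4 together with LIF is known to support self-renewal through Id genes. Smad6, Smad7 and the decoy receptor Bambi are induced by the pathway and damp it.

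Promoter sequence of 4 of the 7 genes, Bmp4, Id2, Id3 and Smad6, was taken from RefSeq (GRCm38.p6), and Id1, Bambi and Smad7 are named only. The promoter set used held entries for those 4 genes and none for Id1, Bambi and Smad7, which decided the sequences shown. Bmp4 and Id2 carry the largest called differences among the 7 genes, Id3 is a further direct target, and Smad6 is an inhibitor known to be induced by BMP. For 3 genes the 250 bases before the start site are printed 5′ to 3′: Bmp4 at chr14:46390670-46390919 and Id2 at chr12:25096093-25096342 on the minus strand, and Id3 at chr4:136143572-136143821 on the plus strand. For Smad6 a 46-base stretch across the start site, chr9:64022048-64022093 on the minus strand, is shown. Capitals mark matches to 5 motifs searched on both strands: GGCGCC and GCCGNCGC, GC-rich elements of the kind bound by BMP-activated Smads; GTCTAGAC, the Smad-binding palindrome; and CAGCTG and CACGTG, E-boxes, to which bHLH factors bind.
Bmp4: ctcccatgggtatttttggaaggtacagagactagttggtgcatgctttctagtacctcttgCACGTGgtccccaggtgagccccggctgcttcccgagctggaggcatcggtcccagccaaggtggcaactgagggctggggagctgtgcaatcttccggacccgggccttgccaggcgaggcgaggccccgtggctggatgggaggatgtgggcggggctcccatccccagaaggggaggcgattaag
Id2: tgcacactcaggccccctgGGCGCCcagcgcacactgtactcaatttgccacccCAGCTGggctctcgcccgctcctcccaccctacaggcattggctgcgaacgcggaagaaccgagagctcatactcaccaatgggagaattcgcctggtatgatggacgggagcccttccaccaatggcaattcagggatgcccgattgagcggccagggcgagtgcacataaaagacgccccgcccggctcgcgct
Id3: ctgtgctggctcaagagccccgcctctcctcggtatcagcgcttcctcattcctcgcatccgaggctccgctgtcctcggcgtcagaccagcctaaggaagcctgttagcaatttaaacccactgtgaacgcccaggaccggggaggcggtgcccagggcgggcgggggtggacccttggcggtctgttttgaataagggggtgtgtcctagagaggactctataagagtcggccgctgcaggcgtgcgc
Smad6: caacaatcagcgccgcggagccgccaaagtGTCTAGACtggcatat
Bmp4 held CACGTG at position -188 from its start site, Id2 held GGCGCC at -231 and CAGCTG at -196, and Smad6 held GTCTAGAC at -4. Positions are counted from the start site in the promoter table, which for Smad6 lies inside the annotated gene span and for the other 3 at its edge. In Id3 none of the 5 motifs was found in the printed bases. Among 32851 promoters of 300 bases, reaching 50 bases past the start site, 11.9% held GGCGCC, 9.76% GCCGNCGC, 16.3% CAGCTG, 7.15% CACGTG and 0.213% GTCTAGAC. In the 250 upstream bases alone the shares were 9.59%, 6.89%, 13.0%, 6.02% and 0.167%. The motifs do not overlap one another in these sequences, and a match describes letters only.

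Values are the authors' log2 expression values. A log2 value of 4 was used as the limit of detection, and 14012 probe sets above it on at least 2 arrays were tested. The arrays fell into 2 classes by the control probe set at the 3′ end of 18S ribosomal RNA. It read 5.25 to 6.55 in iPSC in 2i and day 32, and 11.35 to 13.22 in iPSC with MEFs and both fractions; the median of all probe sets was 5.28 to 5.36 in the former arrays and 4.26 to 4.33 in the latter. Comparisons across the classes cannot be told apart from the class itself. The 4 comparisons within a class are therefore given first. The labelled cell types held up as follows. Sox2 read 9.46 and 10.45 in the Sox2-positive fraction and 4.45 and 4.13 in the Sox2-negative fraction. All 7 pluripotency markers were higher in the positive fraction by limma at an adjusted p under 0.05. Between the fractions 11.3% of all tested probe sets were called. The summed level of those 7 markers, as their mean log2 value, was 10.08 to 11.68 on the 8 arrays outside the Sox2-negative fraction and 4.7 and 5.07 in it. Of 5 epithelial markers, 3 were higher in the positive than in the negative cells. Of the 4 markers each for primitive endoderm, trophoblast, and endothelial and blood cells, 1 in each list passed the detection filter.

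**Figure D1:**
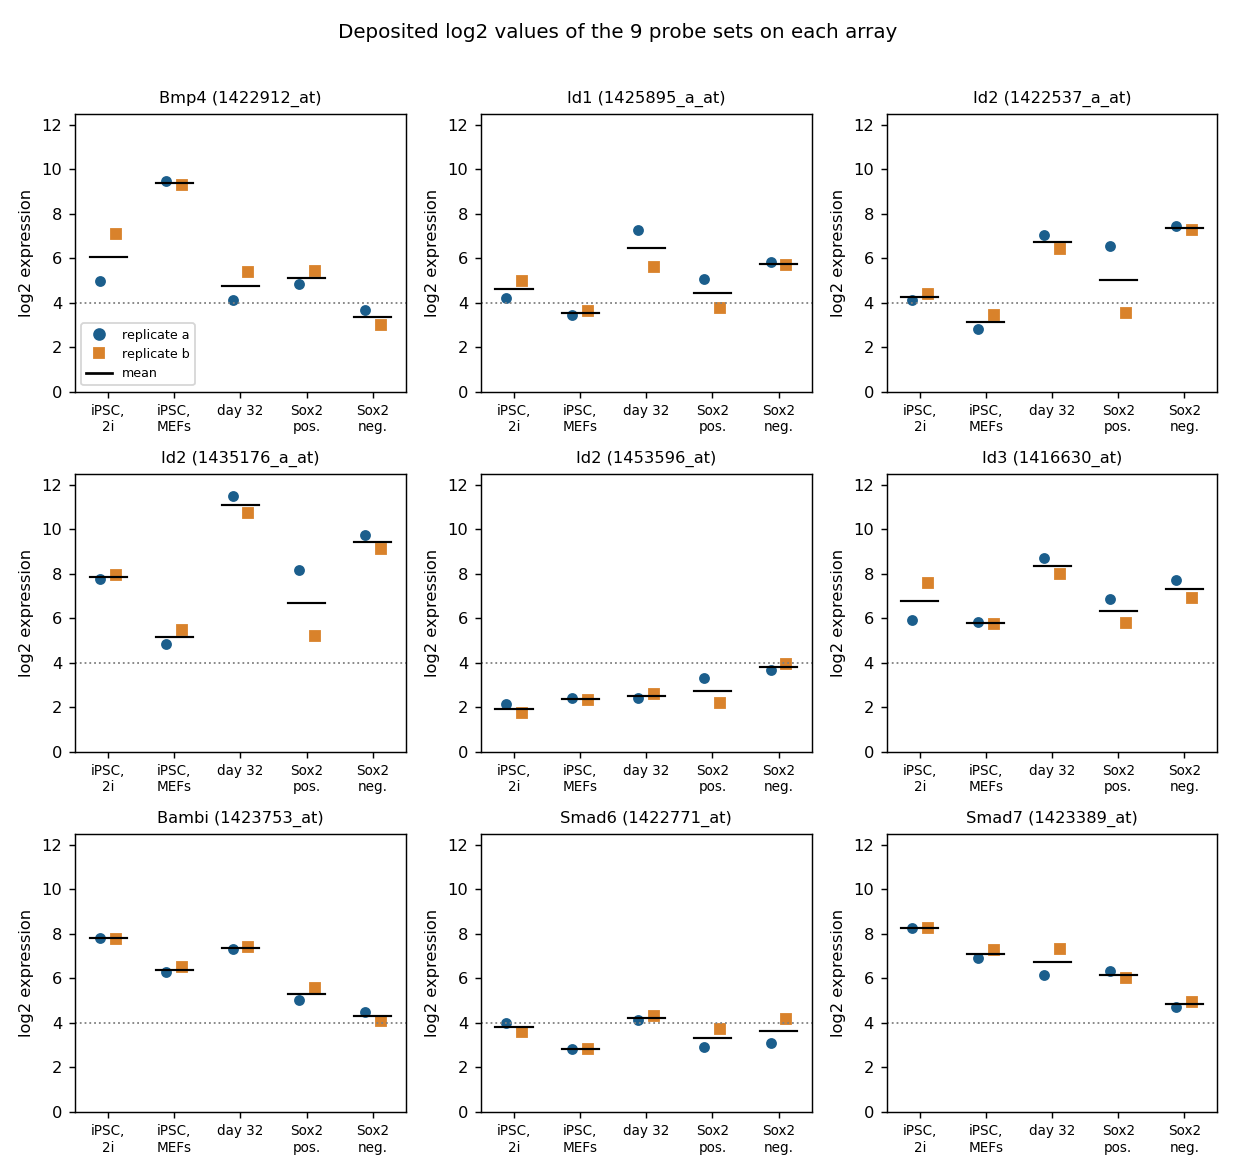
Log2 expression (y axis) of the member probe sets on each array, by group (x axis); circles are replicate a, squares replicate b, black lines group means, and the dotted line marks a log2 value of 4. Bmp4 is highest in iPSC with MEFs, at 9.27 and 9.46. The tested Id probe sets have their lowest group means there. Both rankings span both array classes. Id2 in the Sox2-positive fraction lies far apart in its replicates.

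Bmp4, the ligand, was highest in iPSC grown with MEFs and lowest in the Sox2-negative fraction, in a ranking that spans both array classes. Its probe set 1422912_at read 9.46 and 9.27 in iPSC with MEFs, 4.97 and 7.09 in iPSC in 2i, 4.11 and 5.39 at day 32, 4.82 and 5.43 in the Sox2-positive fraction, and 3.65 and 3.01 in the Sox2-negative fraction. The arrays of iPSC with MEFs stood above all the other arrays, and the Sox2-negative arrays lay below 4. Bmp4 was 18.9-fold lower in the Sox2-positive fraction than in iPSC with MEFs (log2 difference -4.24, SE 0.65, n = 2 against 2 arrays, limma adjusted p = 0.0024). The Sox2-negative fraction held at least 41.2-fold less of it (-6.04, SE 0.65, adjusted p = 2.98e-04), the bound being set against a log2 value of 4. Between the fractions the difference of 1.80 (95% interval 0.33 to 3.26) did not pass the test (adjusted p = 0.109). Between day 32 and iPSC in 2i the arrays overlapped, with a difference of -1.28 (95% interval -2.75 to 0.19, adjusted p = 0.275). In the order of the group means, day 32 at 4.75 and the Sox2-positive fraction at 5.12 overlapped, as did the Sox2-positive fraction and iPSC in 2i at 6.03. Across the array classes this order depends on scaling. The Sox2-negative fraction differed from day 32 by -1.42, and by -0.09 after median centring. For the Sox2-positive fraction against day 32 these values were 0.38 and 1.74.

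Markers of fibroblasts, the other cells of the co-culture, were read beside Bmp4. Of 9 markers fixed for this cell type, 7 passed the detection filter, and their mean log2 level was 5.19 and 4.84 in iPSC with MEFs, 3.23 and 2.99 in the Sox2-positive fraction, 4.72 and 4.8 in the Sox2-negative fraction, 5.98 and 6.09 at day 32, and 3.96 and 5.13 in iPSC in 2i. Day 32 and iPSC in 2i belong to the other array class, so their marker means cannot be ranked against the rest. Among iPSC with MEFs and the 2 fractions, the mean was lowest in the Sox2-positive fraction. Across both classes, 3 markers (Col1a1, Col1a2 and Acta2) had their highest group mean in iPSC with MEFs. Another 3 (Col3a1, Twist1 and Pdgfrb) had it at day 32, and 1 (Prrx1) in the Sox2-negative fraction. Against iPSC with MEFs, 3 of the 7 were called lower in the Sox2-positive fraction, with a median difference of -1.13 over the 7. The share called over all tested probe sets was 32.8% there. In the Sox2-negative fraction 2 were called lower and 1 higher, with a median of -0.28, where 45.0% of all tested probe sets were called. Col1a2, which encodes a chain of type I collagen, read 5.59 and 5.27 in iPSC with MEFs and 1.74 to 2.67 on the other arrays. Within iPSC in 2i, replicate b exceeded replicate a for Bmp4 (7.09 against 4.97) and for the mean of the 7 markers (5.13 against 3.96). The single markers were uneven. Col1a1 (6.86 against 5.07), Col3a1 (5.0 against 2.62) and Acta2 (8.03 against 2.71) were higher in replicate b. Pdgfrb was lower there (5.53 against 7.23), and Col1a2 was below 4 in both replicates. Twist1 and Prrx1 are not given here. A gap as large as that of Bmp4 was present in 0.42% of tested probe sets. The part of feeder MEFs in the Bmp4 level was not tested. In bulk RNA, fewer cells of a type and less RNA per cell cannot be told apart.

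**Figure D2:**
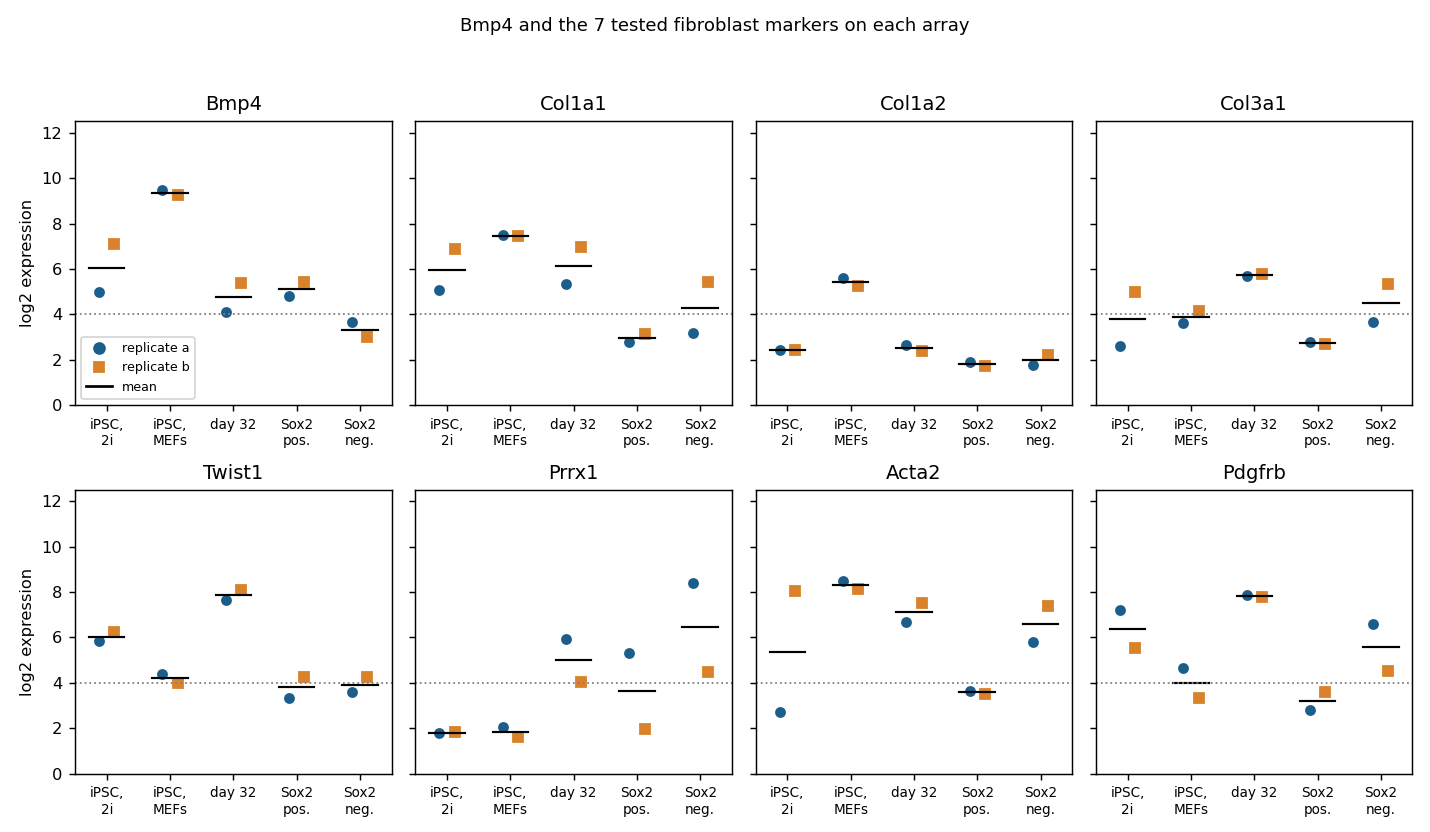
Log2 expression (y axis) on each array by group (x axis) for Bmp4 and the 7 fibroblast markers that passed the filter; circles are replicate a, squares replicate b, lines group means, dotted line a log2 value of 4. Bmp4, Col1a1, Col1a2 and Acta2 have their highest group mean in iPSC with MEFs, and the other 4 markers have theirs at day 32 or in the Sox2-negative fraction. These rankings span both array classes.

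The tested Id probe sets, of the direct targets, had their lowest group means in iPSC with MEFs. Within that array class, Id1 and Id2 rose from there in the Sox2-negative fraction. The ranking itself spans both array classes and depends on scaling. After median centring, iPSC in 2i differed from iPSC with MEFs by -0.06 for Id1 and -0.13 for Id3. For the second and the brightest Id2 probe sets that difference was 0.02 and 1.56. Id1 (1425895_a_at) read 3.43 and 3.64 in iPSC with MEFs, 4.19 and 4.99 in iPSC in 2i, 7.27 and 5.62 at day 32, 5.07 and 3.76 in the Sox2-positive fraction, and 5.84 and 5.67 in the Sox2-negative fraction. The arrays of iPSC with MEFs were the lowest and below 4, and those of the Sox2-positive fraction spanned the limit. Id3 (1416630_at) read 5.82 and 5.75 in iPSC with MEFs, 5.94 and 7.6 in iPSC in 2i, 8.69 and 7.99 at day 32, 6.85 and 5.77 in the Sox2-positive fraction, and 7.71 and 6.93 in the Sox2-negative fraction. Its highest arrays were those of day 32, and a Sox2-positive array lay within the range of iPSC with MEFs. Over the 10 arrays Id1 and Id3 correlated at r = 0.94, and Bmp4 with Id1 at r = -0.71 and with Id3 at r = -0.52. These coefficients describe arrays that share groups and array class.

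Id2 was measured by 3 probe sets that differ in brightness. The brightest, 1435176_a_at, read 4.86 and 5.49 in iPSC with MEFs, 7.75 and 7.94 in iPSC in 2i, 11.49 and 10.73 at day 32, 8.17 and 5.18 in the Sox2-positive fraction, and 9.72 and 9.09 in the Sox2-negative fraction. The second, 1422537_a_at, read 2.83 and 3.42, 4.12 and 4.39, 7.05 and 6.43, 6.53 and 3.51, and 7.46 and 7.26 in the same order of groups. Both placed iPSC with MEFs lowest, and both set the Sox2-positive replicates far apart. The third, 1453596_at, stayed at or below 3.92 on every array and was not tested, so 8 of the 9 probe sets entered the fit. The brightest exceeded the second by 3.55 to 4.44 in iPSC in 2i and day 32 and by 1.64 to 2.26 in the other 3 groups, so the size of that gap followed the array class. The probe sets disagreed between day 32 and the Sox2-negative fraction, where the difference from day 32 was 0.62 by the second and -1.70 by the brightest; neither passed the test.

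Against iPSC with MEFs, Id1 and Id2 rose in the Sox2-negative fraction. Id2 was 18.8-fold higher by the brightest probe set (log2 difference 4.23, SE 0.78, adjusted p = 0.0027) and at least 10.3-fold higher by the second (4.24, SE 0.77, adjusted p = 0.0025). Id1 was at least 3.38-fold higher (2.22, SE 0.57, adjusted p = 0.0124), a call lost when either array of iPSC with MEFs was left out (adjusted p = 0.0733 and 0.0537). Id3 was higher by 1.54 (95% interval 0.26 to 2.81) and did not pass the test (adjusted p = 0.0513). It did pass under the stricter filter (0.0489), quantile normalization (0.0391), median centring (0.0323) and on the compared arrays alone (0.0165). It did not pass with no filter (0.0795), array weights (0.0868), a replicate block (0.0588) or 1 probe set per gene (0.0509). Leaving out 1 array gave Id3 differences of 1.14 to 1.92. Together with Bmp4, Bambi and Smad7, which fell, 6 of the 8 member probe sets were called in this comparison, 3 in each direction, where 45.0% of all tested probe sets were called. All 8 had arrays that did not overlap, as did 73.8% of all tested probe sets.

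In the Sox2-positive fraction no Id probe set passed against iPSC with MEFs, where 2 of the 8 member probe sets were called and the share over all probe sets was 32.8%. The differences were 0.88 for Id1 (95% interval -0.41 to 2.17), 1.5 and 1.90 for Id2 (-0.26 to 3.26 and 0.17 to 3.62) and 0.52 for Id3 (-0.75 to 1.80), with adjusted p of 0.0857 to 0.505. The spread between the replicates of that fraction was wide for these genes. Replicate a exceeded replicate b by 3.02 and 2.99 for the second and the brightest Id2 probe sets, gaps that 0.44% and 0.45% of tested probe sets matched, by 1.31 for Id1 (6.9%) and by 1.08 for Id3 (11.5%), where the median absolute gap in the fraction was 0.39. Replicate b of the fraction, at 5.18 for the brightest Id2 probe set, lay between the arrays of iPSC with MEFs, and replicate a, at 8.17, lay nearer to the lower Sox2-negative array, at 9.09. Sox2 was lower in replicate a, at 9.46 against 10.45, as was the mean of the pluripotency markers, at 10.08 against 10.51, and the fibroblast marker mean was 3.23 against 2.99. Of the 7 fibroblast markers only Prrx1 had a gap like that of Id2, at 5.3 against 1.96. Col1a1 (2.8 against 3.15), Twist1 (3.33 against 4.28) and Pdgfrb (2.81 against 3.59) were lower in replicate a. Col1a2 (1.92 against 1.74), Col3a1 (2.79 against 2.7) and Acta2 (3.65 against 3.52) were slightly higher there. The part of these differences in the Id levels was not tested.

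Between the fractions, which the sort for Sox2 separates, 2 of the 8 member probe sets were called, against 11.3% of all tested probe sets, and both were inhibitors. The Id differences between the Sox2-positive and the Sox2-negative fraction were -2.73 (95% interval -4.49 to -0.97, adjusted p = 0.0541) and -2.34 (-4.07 to -0.61, adjusted p = 0.0813) for Id2, -1.34 (-2.63 to -0.05, adjusted p = 0.164) for Id1 and -1.01 (-2.28 to 0.26, adjusted p = 0.282) for Id3. None passed the test, and although their arrays did not overlap, the same held for 7004 of the 14012 tested probe sets. The Id2 result turned on the Sox2-positive replicates: without replicate a the differences were -4.22 and -3.85 (adjusted p = 0.0025 and 0.0023). Without replicate b they were -1.24 and -0.83 (adjusted p = 0.152 and 0.252). Against iPSC with MEFs the same arrays had the opposite effect. Without replicate b the Id2 differences were 3.0 and 3.4 (adjusted p = 0.004 and 0.0025), and without replicate a they were 0.0 and 0.39 (adjusted p = 0.995 and 0.509).

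Day 32 cells against iPSC in 2i had 2 of the 8 member probe sets called, where 6.31% of all tested probe sets were called. The brightest Id2 probe set was 9.61-fold higher at day 32 (log2 difference 3.26, SE 0.78, adjusted p = 0.0421), and Smad7 was 2.9-fold lower. The second Id2 probe set was higher by 2.48 (95% interval 0.76 to 4.21) and Id1 by 1.86 (0.57 to 3.14), both with an adjusted p of 0.0923. Id3 was higher by 1.57 (0.30 to 2.84, adjusted p = 0.134). On the compared arrays alone the SE of the brightest Id2 probe set was 0.31. There it and the second were both called (adjusted p = 0.032 and 0.0385), as with array weights (0.007 and 0.0191). With no filter neither was called (0.0732 and 0.132). In the other filter, scaling and replicate block runs the second was not called (0.0785 to 0.192). The arrays of all 3 Id genes did not overlap between these groups, nor did those of 62.8% of all tested probe sets. The call for the brightest Id2 probe set was lost when any 1 of the 4 arrays was left out, with differences of 2.88 to 3.64.

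**Figure D3:**
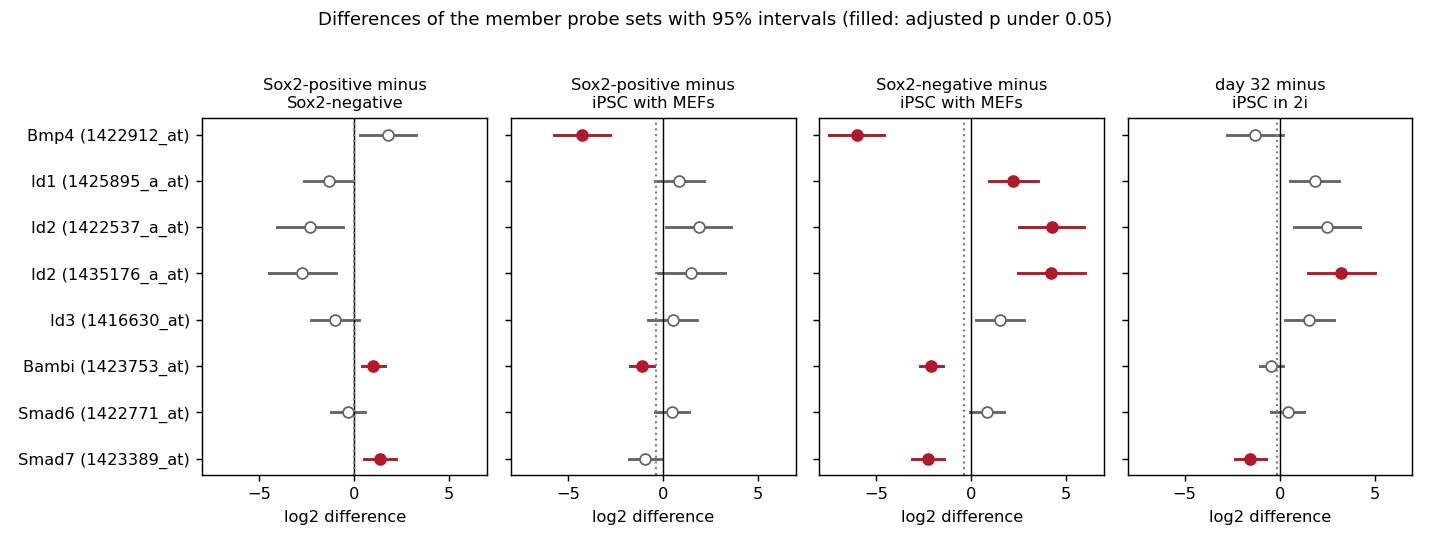
Log2 differences (x axis) of the 8 tested member probe sets in the 4 comparisons within an array class; bars are 95% intervals, filled red points have an adjusted p under 0.05, and the dotted line is the median of all tested probe sets. The Sox2-negative fraction against iPSC with MEFs has 6 filled points, 3 on each side, and the other comparisons have 2 each.

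Bambi, a receptor-like protein without a kinase that blocks BMP and TGF-beta receptors, had an ordered set of levels. Its probe set 1423753_at read 7.83 and 7.76 in iPSC in 2i, 7.31 and 7.41 at day 32, 6.3 and 6.49 in iPSC with MEFs, 5.02 and 5.57 in the Sox2-positive fraction, and 4.48 and 4.1 in the Sox2-negative fraction. No neighbouring groups in that order overlapped, though the order spans both array classes. Bambi was 2.01-fold higher in Sox2-positive cells than in the Sox2-negative fraction (1.0, SE 0.27, adjusted p = 0.0463) and 2.14-fold lower there than in iPSC with MEFs (-1.10, SE 0.27, adjusted p = 0.0154). The Sox2-negative fraction had a level 4.3-fold lower than iPSC with MEFs (-2.10, SE 0.27, adjusted p = 6.03e-04). The difference between day 32 and iPSC in 2i was -0.44 (95% interval -1.05 to 0.18, adjusted p = 0.380). The call between the fractions was lost on the compared arrays alone (adjusted p = 0.226), with the arrays weighted (0.138), with a replicate block (0.0549) and without any of 3 of the 4 arrays (0.0549 to 0.197). The call for the Sox2-positive fraction against iPSC with MEFs was lost without any of 3 arrays, with adjusted p from 0.065 to 0.0886.

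Smad7, the inhibitory Smad that acts on both BMP and TGF-beta receptors, followed a similar order. Its probe set 1423389_at read 8.27 and 8.26 in iPSC in 2i, 6.92 and 7.29 in iPSC with MEFs, 6.15 and 7.31 at day 32, 6.31 and 6.03 in the Sox2-positive fraction, and 4.7 and 4.95 in the Sox2-negative fraction. The iPSC in 2i were highest and the Sox2-negative arrays lowest, while day 32 overlapped both the Sox2-positive fraction and iPSC with MEFs. This order too spans both array classes. After median centring, iPSC in 2i exceeded iPSC with MEFs by 0.04, and the Sox2-positive fraction exceeded day 32 by 0.80. Smad7 was 2.54-fold higher in Sox2-positive cells than in the Sox2-negative fraction (1.34, SE 0.37, adjusted p = 0.0473) and 4.86-fold lower in the Sox2-negative fraction than in iPSC with MEFs (-2.28, SE 0.37, adjusted p = 0.0015). Against iPSC with MEFs the Sox2-positive fraction differed by -0.94 (95% interval -1.77 to -0.10, adjusted p = 0.0796). Between day 32 and iPSC in 2i the difference was -1.54 (SE 0.37, adjusted p = 0.0427). The call between the fractions was lost when any 1 array of them was left out, with adjusted p from 0.0829 to 0.14, and that for day 32 without any of 3 of its 4 arrays, with adjusted p from 0.15 to 0.294. Smad7 correlated with Bambi at r = 0.88 over the 10 arrays.

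Smad6, the inhibitory Smad more selective for BMP receptors, was near the limit of detection throughout. Its probe set 1422771_at read 4.01 and 3.6 in iPSC in 2i, 2.8 and 2.83 in iPSC with MEFs, 4.13 and 4.31 at day 32, 2.93 and 3.7 in the Sox2-positive fraction, and 3.1 and 4.18 in the Sox2-negative fraction. The value exceeded 4 on 4 arrays, and the fractions overlapped. No comparison within an array class called it, with adjusted p from 0.114 to 0.640.

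Across the array classes, 61.6% of all tested probe sets were called between iPSC in 2i and iPSC with MEFs, with a median difference of 0.92, and 4 of the 8 members were among them. Bmp4 was 10.1-fold lower in 2i (-3.34, adjusted p = 0.002), against the direction of that median. Its replicates in 2i set the size: without replicate a of iPSC in 2i the difference was -2.28, and without replicate b -4.39. The brightest Id2 probe set was higher by 2.67 (adjusted p = 0.0149), Bambi by 1.40 (0.002) and Smad7 by 1.16 (0.0216), which relative to the median were 1.74, 0.47 and 0.23. Centring the arrays on their medians left only Bmp4 called. The Sox2-positive fraction against day 32 had 4 members called where 71.6% of probe sets were, at a median of -1.26. The brightest Id2 probe set differed by -4.43 (adjusted p = 7.78e-04), Bambi by -2.06 (1.67e-04), Id1 by -2.03 (0.0102) and Id3 by -2.03 (0.0097), which relative to the median were -3.17, -0.8, -0.76 and -0.76. Id1 and Id3 lost their calls after quantile normalization, at -0.91 and -0.69, and after median centring, at -0.67 each. They also lost them without replicate a of day 32 (adjusted p = 0.0852 and 0.0649) and without the Sox2-positive replicate b (0.0794 and 0.0716). Bambi was -0.79 after quantile normalization and -0.70 after median centring (adjusted p = 0.0454 and 0.0573). The Sox2-negative fraction against day 32 had 2 called where 72.3% were, at a median of -1.27: Bambi by -3.07 (2.83e-05) and Smad7 by -1.90 (0.0014), which relative to the median were -1.8 and -0.64. Smad7 lost its call after quantile normalization (-0.71, adjusted p = 0.126) and median centring (-0.57, adjusted p = 0.222). In these 3 comparisons the groups and the array classes coincide.

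The change from iPSC with MEFs to each fraction was also set against the change from iPSC in 2i to day 32, each measured within its array class. For the Sox2-positive fraction, none of the 8 members was called by limma and 1 had an unadjusted p under 0.05, Bmp4 at -2.96 (SE 0.92, adjusted p = 0.067), where 11.5% of all tested probe sets were called. For the Sox2-negative fraction, 2 were called, where the share was 11.7%: Bmp4 at -4.76 (SE 0.92, adjusted p = 0.0179) and Bambi at -1.67 (SE 0.39, adjusted p = 0.0291). For the Id probe sets these differences in change were -0.03 to 1.75 for the Sox2-negative fraction, with adjusted p from 0.295 to 0.981. Leaving out any 1 of 4 of the 8 arrays lost the Bmp4 call, with adjusted p from 0.0508 to 0.084, and leaving out any 1 of 7 lost the Bambi call, with adjusted p from 0.0537 to 0.0976.

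Other genes of the pathway were taken from lists of ligands, receptors, Smads, antagonists, regulators, targets, bHLH partners of the Id proteins and TGF-beta genes. Of 71 genes listed, 61 were on the array and 42 passed the filter. Between the fractions 6 of the 42 were called, 2 higher and 4 lower in the Sox2-positive fraction, against 12.1% of all 8599 genes tested. The median difference was -0.31, beside -0.02 over all genes. Gdf3, a ligand of the TGF-beta family known to inhibit BMP in human and mouse cells, exceeded its Sox2-negative level 29.9-fold in the Sox2-positive cells (4.90, adjusted p = 8.94e-04). Tbx3, a T-box factor of pluripotent cells and a BMP target in several tissues, did so 36.8-fold (5.20, adjusted p = 3.56e-04). The BMP antagonist Fstl1 (-1.16, adjusted p = 0.0351), the E protein Tcf12 (-1.27, adjusted p = 0.0444), the antiproliferative protein Tob2 (-1.92, adjusted p = 0.0162) and the co-receptor Tgfbr3 (-1.38, adjusted p = 0.0395) were lower.

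Against iPSC with MEFs, 12 of the 42 genes were called in the Sox2-positive fraction, 3 higher and 9 lower, where 35.0% of all genes were called. In the Sox2-negative fraction 15 were called, 7 higher and 8 lower, where 47.1% were. Zfp423, a zinc finger protein that partners BMP-activated Smads, fell 12.8-fold in the Sox2-positive fraction (-3.68, adjusted p = 0.0046) and 43.6-fold in the Sox2-negative fraction (-5.44, adjusted p = 4.97e-04). Smad1, a signal transducer of the pathway, fell 5.54-fold and 4.41-fold (adjusted p = 0.0022 and 0.002), and the Smad phosphatase Ppm1a fell 6.57-fold and 5.28-fold (adjusted p = 0.0012 and 6.79e-04). Smad4, the common partner, was lower in the Sox2-positive fraction (-1.19, adjusted p = 0.0104). Id4, the remaining member of the Id family, rose 1.89-fold and 1.83-fold (adjusted p = 0.0467 and 0.0437). Tgfbi, a secreted matrix protein induced by TGF-beta, rose at least 14.0-fold and at least 22.8-fold (adjusted p = 0.0011 and 2.12e-04). Of 7 TGF-beta genes that passed the filter, 5 were called in the Sox2-negative fraction, among them the receptor Tgfbr2, higher by 2.83 (adjusted p = 0.0077), and Tgfbr1, lower by -1.42 (adjusted p = 0.0052).

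At day 32 against iPSC in 2i, 6 of the 42 genes were called, 5 higher and 1 lower, where 7.26% of all genes were. Tgfbr2 was higher by 2.76 (adjusted p = 0.0415), the BMP-binding membrane protein Crim1 by 2.14 (0.0229), Tgfbi by 2.08 (0.0438), the transcription factor Gata2 by 1.97 (0.0474) and Fstl1 by 1.18 (0.0458), and Gdf3 was 4.44-fold lower (-2.15, adjusted p = 0.0371). None of the 6 BMP receptors that passed the filter was called by limma in any of the 4 comparisons. At an unadjusted p under 0.05 there was 1 between the fractions, 0 in the Sox2-positive fraction against iPSC with MEFs, 2 in the Sox2-negative fraction against iPSC with MEFs and 0 at day 32 against iPSC in 2i. Over all 8599 genes the shares under that limit were 29.0%, 46.7%, 55.6% and 25.0%.

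**Figure D4:**
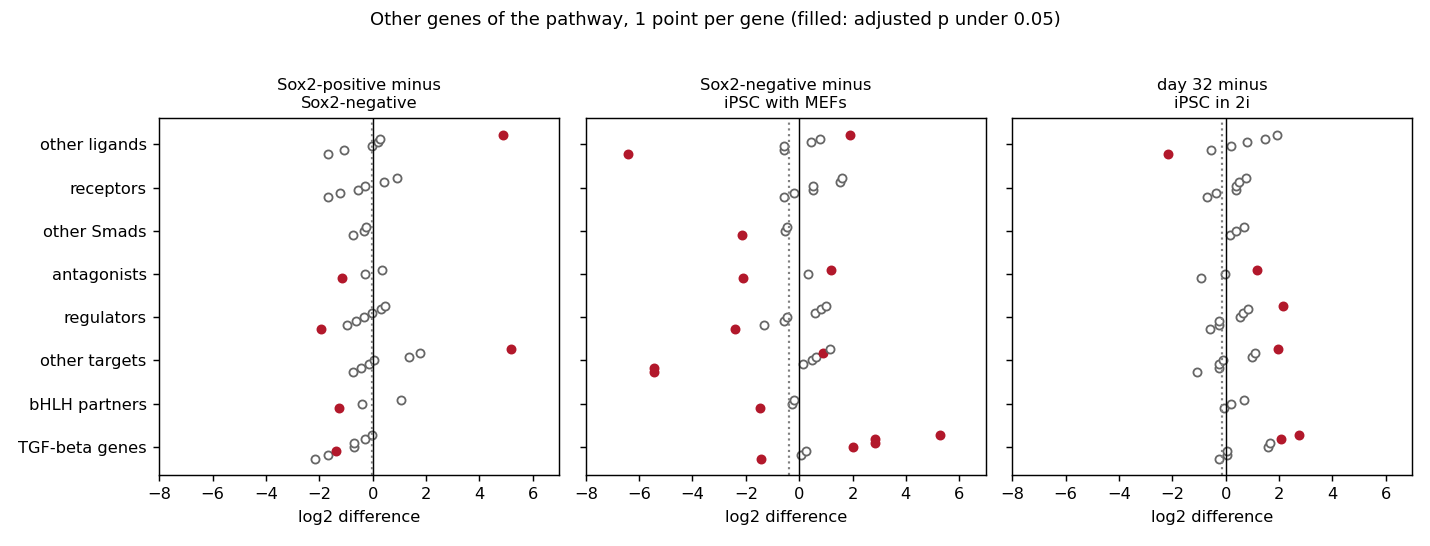
Log2 differences (x axis) of the 42 tested pathway genes by list (y axis) in 3 comparisons, 1 point per gene; filled red points have an adjusted p under 0.05 and the dotted line is the median of all tested probe sets. The single far point among the ligands is Gdf3, at 4.90 between the fractions and -6.41 in the Sox2-negative fraction against iPSC with MEFs. No point in the row of receptors is filled; TGF-beta receptors stand in the row of TGF-beta genes, where some are filled.

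The probe sets most like each member over the 10 arrays, by Pearson's r, were named as a description. For Bmp4 they were Polr1c (0.962), Ints3 (0.96) and Zfp423 (0.96), the last of which is on the list of pathway targets. For Id1 they were Gmip (0.96), Anxa1 (0.959) and Ang (0.959), for Id2 Top1mt (0.989), St6galnac4 (0.982) and Anxa2 (0.981), and for Id3 Fbln2 (0.961), Tppp3 (0.96) and Glipr1 (0.957). For Bambi they were Hells (0.996), Gid8 (0.994) and Ube2a (0.992), for Smad7 Rps4l (0.994), Gcnt1 (0.983) and Txn1 (0.983), and for Smad6 Creb3l1 (0.959), Spag1 (0.956) and Specc1 (0.95). The 10 arrays share groups and array class.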

How the data were processed

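The deposited series table was used. Per the submitters' processing notes, the authors' log2 expression values come from GCRMA in the affy package; no version is given. RNA was taken with Trizol and amplified with 1 of 2 NuGEN kits; which array had which kit is not stated. Array number and the scatter between replicates limit the precision.

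Of 22690 probe sets, 64 controls, 691 with several gene symbols and 1555 with none were left out. The 14012 probe sets that exceeded 4 (log2) on 2 or more arrays were fitted with limma 3.58.1 in R 4.3.3, as group means over all 10 arrays (residual df 5, prior df 4.2). Benjamini-Hochberg adjusted p-values run over these 14012 in each comparison, and under 0.05 was called. Folds whose lower group lay below 4 on every array are bounds. The smallest two-sided p of an exact permutation test is 0.33 at this size. Pathway genes were represented by their brightest tested probe set. The fit was tested on simulated data for the comparison between the fractions. It recovered 7.5% of changes of log2 1, 85.1% of changes of log2 2 and 100% of changes of log2 4. The simulation changed 67, 67 and 66 of 14012 probe sets at these sizes, where 1578 were called in the data. Each simulated probe set had the same noise on all arrays. In the data the median absolute replicate gap was 0.39 and 0.42 in the fractions and 0.25 to 0.28 in the other groups. These rates need not hold for the data. A difference near log2 1 that did not pass is no sign of equal levels.

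All members were described, listed pathway genes were named where called, and 3 like genes per member were named by Pearson's r. Members, lists and rules were chosen with earlier results of these data known. Alternatives were another filter, quantile normalization, median centring, the compared arrays alone, array weights, a replicate block, 1 probe set per gene and leaving out each array. Scanner files were not used here.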

Additional observations from a re-analysis of the deposited data

Results flagged for a closer look

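Bmp4 and Bambi differed between the contrasts of the 2 array classes, by the test of the difference itself. The change of Bmp4 from iPSC with MEFs to the Sox2-negative fraction was -6.04, and from iPSC in 2i to day 32 it was -1.28, a difference of -4.76 (SE 0.92, limma adjusted p = 0.0179). For Bambi the changes were -2.10 and -0.44, a difference of -1.67 (SE 0.39, adjusted p = 0.0291). The Bmp4 arrays of iPSC with MEFs, at 9.46 and 9.27, were above every other array, and those of iPSC in 2i, at 4.97 and 7.09, lay far apart for replicates. The culture of the iPSC, the sorting of the cells and the array class all differ between these contrasts and cannot be told apart.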

How the results depend on the processing

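Bmp4 in both fractions and Id2 (both tested probe sets), Bambi and Smad7 in the Sox2-negative fraction, all against iPSC with MEFs, kept their direction and their call under every alternative run; Bmp4 ranged from -4.54 to -3.64 and from -6.36 to -5.69. The counts of called members moved as follows. Between the fractions, 2 became 1 with no filter and 0 on the compared arrays alone and with array weights. In the Sox2-positive fraction against iPSC with MEFs, 2 became 1 after quantile normalization and after median centring. At day 32 against iPSC in 2i, 2 became 0 with no filter, 1 after quantile normalization and 4 with array weights. Between the iPSC groups, 4 became 1 after quantile normalization and median centring and 7 on the compared arrays alone. In the Sox2-positive fraction against day 32, 4 became 2 and 1 after quantile normalization and median centring. In the Sox2-negative fraction against day 32, 2 became 1 after either and 4 on the compared arrays alone. Leaving out 1 array gave 0 to 3 calls between the fractions, 1 to 4 in the Sox2-positive fraction against iPSC with MEFs, 0 to 2 at day 32 against iPSC in 2i, 2 to 4 between the iPSC groups, and 0 to 2 in each difference of changes.

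Directions turned under scaling only in comparisons that involve both array classes. Between the iPSC groups median centring gave Id1 -0.06, Id3 -0.13 and Smad6 -0.12, and quantile normalization gave Id3 -0.14. In the Sox2-positive fraction against day 32, Smad7 became 0.80 under both and Smad6 0.46 under median centring. In the Sox2-negative fraction against day 32, quantile normalization and median centring gave 0.57 and 0.64 for Id1, 0.36 and 0.32 for Id3, and 0.21 and 0.76 for Smad6, and in its difference of changes 0.22 and 0.18 for Id3. Leaving out 1 array also turned uncalled values. The range was -0.86 to 0.22 for Smad6 between the fractions. For Id3 in the Sox2-positive fraction against iPSC with MEFs it was -0.01 to 1.06. In that fraction against day 32 it was -0.27 to 1.01 for Bmp4 and -1.14 to 0.02 for Smad7. For Id1 in the Sox2-negative fraction against day 32 it was -1.52 to 0.13. In the differences of changes the ranges were -2.10 to 0.92 for Id2 (1422537_a_at) and -0.30 to 0.47 for Smad6 with the Sox2-positive fraction, and -0.46 to 1.19 for Id1, -0.86 to 0.79 for Id3 and -0.13 to 0.95 for Smad6 with the Sox2-negative fraction. The causes were not tested. The Smad7 call between the fractions was lost with no filter (adjusted p = 0.0626), on the compared arrays alone (0.113) and with array weights (0.173), and at day 32 with no filter (0.0572), after quantile normalization (0.059) and on the compared arrays alone (0.107). Id2 (1435176_a_at) at day 32 was lost with no filter (0.0732). Bambi in the Sox2-positive fraction against iPSC with MEFs had an adjusted p of 0.0594 after quantile normalization and 0.0516 after median centring.

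The letters a and b are not stated to pair arrays, and their deviations correlated between groups at -0.07 to 0.31. With them as a replicate block, between the fractions Id2 (1435176_a_at) gained a call (-2.73, adjusted p = 0.0415) and Bambi lost one (1.0, adjusted p = 0.0549), which left the count at 2. Smad6, above 4 on 4 arrays, and Id2 (1453596_at), above 4 on none, are limited by low signal.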
